A study of Homo sapiens with 8 samples.

Results

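Aldo-keto reductases are cytosolic enzymes that use NADPH to reduce aldehydes and ketones to alcohols, and 7 of the 23228 genes counted in 8 RNA-seq libraries are described here: AKR1A1, AKR1B1, AKR1B10, AKR1C1, AKR1C2, AKR1C3 and AKR7A2. They were selected by name on earlier measured differences in their read counts between the groups of these same libraries. All 7 were present in the count tables. Their levels and changes are therefore a description, and no p-value is given for any of them. The libraries are labelled U87 MG, a glioblastoma line long in culture, and fall into 4 groups of 2. In the first, the ERβ5 isoform of estrogen receptor beta (ERβ, gene ESR2) had been put back into ERβ knockout cells (ERβ5), in the second the ERβ1 isoform had been put back into knockout cells (ERβ1), in the third ERβ had been removed with CRISPR/Cas9 (ERβ-KO), and in the fourth the cells were unmodified (control). Both isoform groups therefore carry the knockout as well, and all groups are described as U87 cells grown in serum. The labels do not say whether a group is 1 clone, which promoter drove the isoforms or whether the 2 libraries of each group were grown apart. Errors and p-values thus measure only the spread between these libraries, which may be technical. ESR2 had 7 and 10 reads in ERβ5, 6 and 18 in ERβ1, 23 and 21 in ERβ-KO and 25 and 20 in control, and passed the test in no comparison. The ESR2 counts thus do not show the labelled differences, and a group name stands below for the libraries labelled so.

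Family members differ in what they reduce. AKR1C1, AKR1C2 and AKR1C3 act on steroid hormones: AKR1C1 turns progesterone into a weaker metabolite, AKR1C2 turns dihydrotestosterone into a weak androgen, and AKR1C3 makes testosterone from androstenedione and also makes a prostaglandin of the F series. AKR1B1 is aldose reductase, which reduces glucose to sorbitol in the polyol pathway, and its relative AKR1B10 reduces retinal and lipid aldehydes. AKR1A1 is the broadly expressed aldehyde reductase, and AKR7A2 reduces succinic semialdehyde and the dialdehyde of aflatoxin. In human cells the AKR1C genes and AKR1B10 are well known as genes driven by NRF2, the transcription factor that answers electrophiles and oxidants.

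The 3 AKR1C genes lie side by side on the short arm of chromosome 10, AKR1C1 at chr10:5005445-5025475 (plus strand), AKR1C2 at chr10:5029967-5060223 (minus strand) and AKR1C3 at chr10:5077546-5149878 (plus strand), in GRCh37, the build of hg19. Their sequences matter because the libraries are single-end reads of 50 bases. The coding sequences of AKR1C1 and AKR1C2 are both 972 bases long and differ at 19 of them (98% identity), and AKR1C3 is 91.5% identical to AKR1C1 and 91% to AKR1C2. Coding bases 853 to 902, counted from 1 at the first base of the start codon, show a stretch in which a read cannot tell AKR1C1 from AKR1C2. Capitals mark bases that are not the same in all 3 genes, and AKR1C3 has 4 differences from AKR1C1 there.
AKR1C1: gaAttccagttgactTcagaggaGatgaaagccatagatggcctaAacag
AKR1C2: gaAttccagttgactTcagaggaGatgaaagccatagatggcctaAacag
AKR1C3: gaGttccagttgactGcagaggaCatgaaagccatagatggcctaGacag
Coding bases 111 to 160 are the stretch where AKR1C1 and AKR1C2 differ most, at 8 positions, and AKR1C3 differs from AKR1C1 at 5. A read that covers it belongs to a single one of these 3 genes, and other genes were not compared for this stretch. Capitals have the same meaning.
AKR1C1: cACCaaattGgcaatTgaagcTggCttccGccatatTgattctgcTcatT
AKR1C2: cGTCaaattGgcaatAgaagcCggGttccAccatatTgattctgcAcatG
AKR1C3: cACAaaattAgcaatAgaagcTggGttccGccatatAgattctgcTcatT

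How much of each transcript such reads can assign was measured with every window of 50 bases of the canonical transcript. Each was looked up in the GRCh37 genome and in the transcripts of the other genes of the aldo-keto reductase superfamily. Transcripts of genes outside it were not compared. Windows across exon junctions, which the genome does not hold, counted as a single place unless another transcript of the superfamily held them. Windows across junctions numbered 363 of 1358 for AKR1A1 and 368 of 6494 for AKR1C1. Of the windows of AKR1A1, 100% had a single place in this sense. AKR1C1 had a single place for 63.5% of its windows and AKR1C2 for 52.7%, or 45.5% and 42.8% within their coding parts. The figures were 81.4% for AKR1C3, 92.9% for AKR1B1, 85.2% for AKR1B10 and 92% for AKR7A2. AKR1C1 and AKR1C2 had 1447 windows in common. Reads without a single place were not counted in genes, so the levels of AKR1C1 and AKR1C2 are understated by an amount that the files do not give, and the split between both genes is uncertain.

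**Figure D1:**
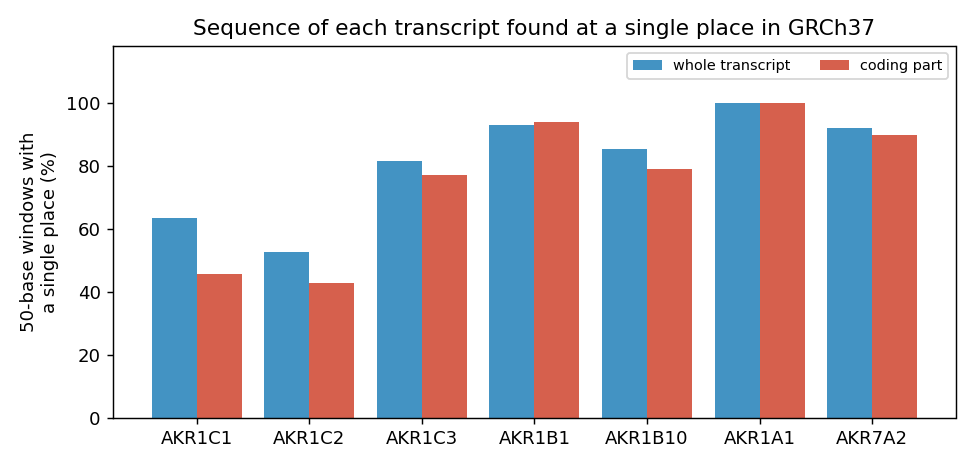
Bars give the percentage of windows of 50 bases with a single place, for the whole canonical transcript (blue) and its coding part (red) of each gene. Windows across exon junctions that no other transcript of the superfamily held count as a single place. AKR1C1 and AKR1C2 have the lowest bars, at 63.5% and 52.7% for the transcript, and AKR1A1 stands at 100%.

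The regions around the starts of AKR1C1 and AKR1C2 are also alike. They are shown from the RefSeq table of promoters (GRCh38.p14), from 250 bases before to 50 after each start, on the gene's strand. Whether this likeness has a part in the levels of both genes was not tested. AKR1C1 spans chr10:4963165-4963464 (plus strand) and AKR1C2 chr10:5003808-5004107 (minus strand). Over the 296 columns that align, 288 were identical (97.3%), and the 8 that differ, gaps included, are in capitals.
AKR1C1: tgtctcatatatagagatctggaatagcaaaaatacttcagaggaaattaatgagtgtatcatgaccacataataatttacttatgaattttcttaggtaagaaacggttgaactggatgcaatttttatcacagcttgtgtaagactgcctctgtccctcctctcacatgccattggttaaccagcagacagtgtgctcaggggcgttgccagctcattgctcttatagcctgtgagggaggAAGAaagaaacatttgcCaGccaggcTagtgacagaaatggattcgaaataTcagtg
AKR1C2: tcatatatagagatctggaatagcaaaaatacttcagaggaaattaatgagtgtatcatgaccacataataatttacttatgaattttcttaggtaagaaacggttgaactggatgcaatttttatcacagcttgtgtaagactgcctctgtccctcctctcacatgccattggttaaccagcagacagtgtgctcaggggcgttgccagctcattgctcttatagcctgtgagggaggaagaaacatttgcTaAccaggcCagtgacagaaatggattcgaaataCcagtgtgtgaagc
Both strands of the promoters of the members in that table (all except AKR1B10) were searched for the letters TGACNNNGC, the core of the antioxidant response element that NRF2 binds, which occur in 13.3% of the 35116 promoters of the table. They were found at 3 places in each window listed for AKR7A2 and in none of the other windows. The full estrogen response element, GGTCA and its reverse complement 3 bases apart, occurs in 0.057% of all promoters and in none of these. GGTCA alone, in 37.4% of all promoters, was found in AKR1C1 at -188, in AKR1C2 at -192 and in AKR7A2. TGANTCA, the AP-1 site (7.71% of promoters), was in none. GGGCGG, the GC box (45%), was in AKR1A1, AKR1B1 and AKR7A2. TATAAA (11.5%) was at -26 in the AKR1C3 window chr10:5048531-5048830, on the opposite strand, so that the gene's strand reads TTTATA. The other AKR1C3 window, chr10:5094164-5094463, did not hold it. The letters say only what stands in these windows.

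Depth ran from 26760897 to 48076414 reads in genes per library. Within a group, r across genes (not independent replicates) was 0.991 to 0.996, and the 2 libraries differed beyond counting noise, at 7.52 to 41.4 for chi-square over its degrees of freedom. Of the 10 glioma and astrocyte markers, S100B, OLIG2, POSTN and AQP4 had 0 reads in all 8 libraries and GFAP ran from 0.0469 to 0.135 CPM (counts scaled to the library's total in genes). CD44 at 46.9 to 63.3 CPM and SOX2 at 11.3 to 30.1 CPM were present in every library, as were NES at 1.87 to 4.38 CPM and VIM at 1.83 to 12.3 CPM. The summed list was 74.8 and 75.2 CPM in ERβ5, 72 and 72.6 in ERβ1, 99.2 and 97.9 in ERβ-KO, and 84.1 and 87.8 in control. All 10 markers of luminal epithelium reached 10 CPM in every library. Among them KRT8 ran from 2100 to 4430 CPM, GATA3 from 1110 to 1830 and ESR1 from 105 to 144. By these lists the libraries look like luminal epithelium more than glioma, at odds with the U87 MG label. What the cells are was not tested. The summed level of the luminal markers was 16400 and 17100 CPM in ERβ5, 18300 and 17500 in ERβ1, 12800 and 12800 in ERβ-KO and 14300 and 15000 in control. The part of these differences between groups in the results below was not tested, and in such bulk libraries a change in the make-up of the cells and a change in RNA per cell cannot be told apart. Counts also followed the GC content of transcripts differently between libraries. The correlation across 13298 genes was 0.118 and 0.338 in ERβ5, 0.351 and -0.137 in ERβ1, -0.559 and -0.46 in ERβ-KO, and 0.126 and 0.192 in control. Its sign thus also differed within ERβ1.

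AKR1C1 and AKR1C2 were highest in ERβ5 and lowest in ERβ1. AKR1C1 had 19.6 and 40 CPM in ERβ5, 2.47 and 2.29 CPM in ERβ1, 11.4 and 14.4 CPM in ERβ-KO, and 5.89 and 5.13 CPM in control, from 66 to 1100 reads. No 2 of the 4 groups overlapped, in the order ERβ5, ERβ-KO, control and ERβ1. AKR1C2 had 26.5 and 49.1 CPM in ERβ5, 2.95 and 3.56 CPM in ERβ1, 12.1 and 16.7 CPM in ERβ-KO, and 8.37 and 7.4 CPM in control, from 79 to 1350 reads. Its groups stood in the same order, also without overlap. The highest library exceeded the lowest 17.5-fold for AKR1C1 and 16.6-fold for AKR1C2. The 2 ERβ5 libraries themselves differed 2.08-fold for AKR1C1 and 1.89-fold for AKR1C2. Group means of AKR1C1 were 29.9 ± 14.9 CPM in ERβ5, 2.38 ± 0.146 in ERβ1, 12.8 ± 2.3 in ERβ-KO and 5.57 ± 0.547 in control (SD, n = 2 each), and those of AKR1C2 were 37.9 ± 16.5, 3.25 ± 0.4, 14.3 ± 3.47 and 7.97 ± 0.698 CPM in the same order.

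AKR1C3 was far less abundant. It had 1.05 and 1.89 CPM in ERβ5, 0.262 and 0.458 CPM in ERβ1, 0.703 and 1.12 CPM in ERβ-KO, and 1.06 and 1.08 CPM in control, which rest on 36 and 52, 7 and 22, 30 and 34, and 44 and 40 reads. The ERβ1 libraries lay below all others, and the other 3 groups overlapped. Across the 8 libraries the log2 levels of AKR1C1 and AKR1C2 correlated at r = 0.99, and AKR1C3 correlated with them at 0.82 and 0.86. These libraries fall into groups and the genes have windows in common, so the values describe these libraries only. AKR1C1 made up 42.5 and 44.9% of the reads of AKR1C1 and AKR1C2 together in ERβ5, 45.5 and 39.1% in ERβ1, 48.5 and 46.3% in ERβ-KO, and 41.3 and 40.9% in control. The exact binomial 95% intervals, which cover counting error only, were widest in the first ERβ1 library (37.2 to 54%) and narrowest in the second ERβ5 library (42.9 to 46.9%). That share lay between 39.1 and 48.5% over libraries in which the levels of the genes ranged 17.5-fold and 16.6-fold.

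AKR1B1 followed another order. The gene lies at chr7:134127108-134144036 (minus strand). It had 0.581 and 1.13 CPM in ERβ5, 0.598 and 0.52 CPM in ERβ1, 2.2 and 2.27 CPM in ERβ-KO, and 2.28 and 2.7 CPM in control, from 16 to 100 reads. All 4 libraries of the isoform groups lay below all 4 of the ERβ-KO and control groups. ERβ5 and ERβ1 overlapped, and the ERβ-KO libraries lay just below the control ones. Group means were 0.857 ± 0.399 CPM in ERβ5, 0.559 ± 0.0597 in ERβ1, 2.21 ± 0.0819 in ERβ-KO and 2.52 ± 0.296 in control (SD, n = 2 each). AKR1B10, its neighbour at chr7:134212319-134226164 (plus strand), had 4 and 5 reads in ERβ5, 2 and 4 in ERβ1, 3 and 3 in ERβ-KO, and 3 and 5 in control. These are 0.0703 to 0.182 CPM, below the level needed for the test (about 0.28 CPM) in every library, and a difference was not detectable at this depth. AKR1B10 is the member that was not tested.

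AKR1A1 and AKR7A2 were the abundant members and varied least. AKR1A1 (chr1:46016215-46035721, plus strand) had 150 and 168 CPM in ERβ5, 169 and 161 in ERβ1, 142 and 164 in ERβ-KO, and 160 and 173 in control. Its highest library was 1.22-fold its lowest and all its groups overlapped. AKR7A2 (chr1:19630459-19638638, minus strand) had 72.9 and 81.1 CPM in ERβ5, 92 and 84.7 in ERβ1, 58.1 and 71.4 in ERβ-KO, and 83.8 and 84.1 in control. The ERβ-KO libraries lay below all others, and the range over libraries was 1.58-fold.

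**Figure D2:**
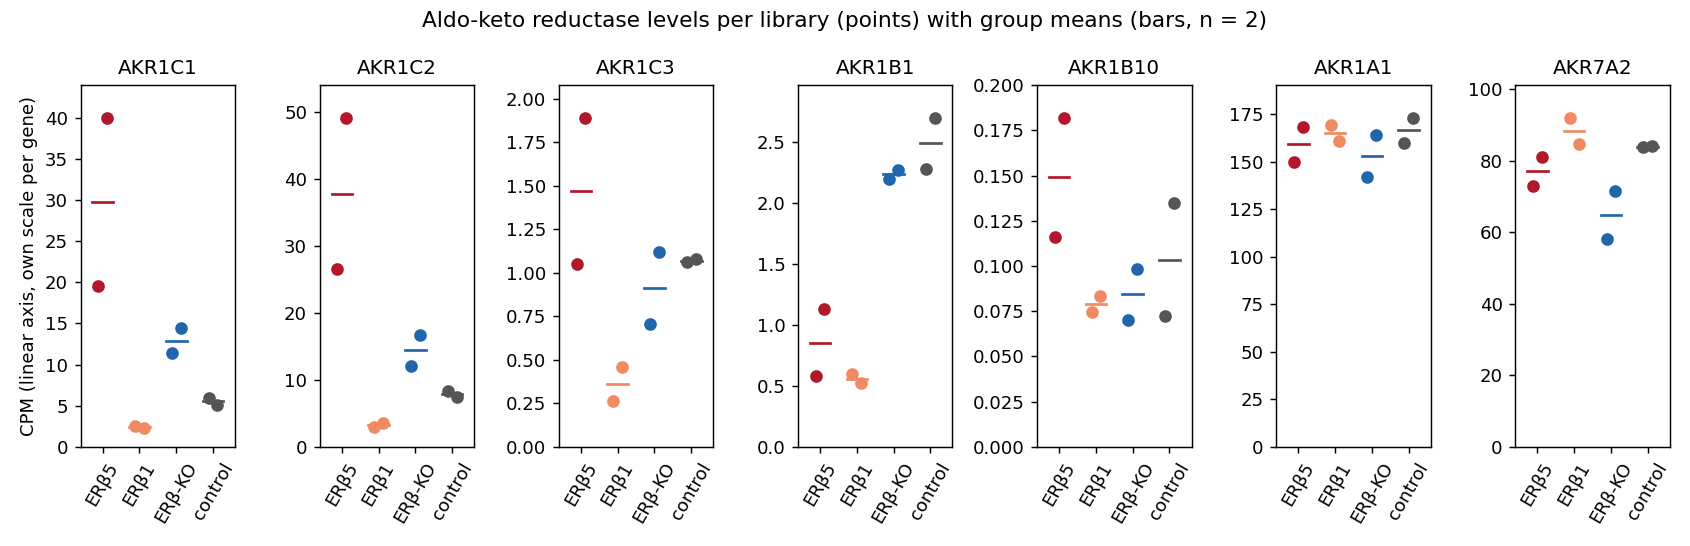
Each panel shows a gene, with CPM on a linear axis of its own, a point for each library and a bar at the mean of the 2 points. AKR1C1 and AKR1C2 reach 40 and 49.1 CPM in ERβ5 and stay under 4 CPM in ERβ1, AKR1B1 is at or under 1.13 CPM in both isoform groups, and AKR1A1 lies between 142 and 173 CPM.

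Per transcript length, AKR1A1 was first in all groups, at 113 RPKM (CPM per kilobase of canonical transcript) in ERβ5, 117 in ERβ1, 108 in ERβ-KO and 120 in control. AKR7A2 came next, at 56.7, 64.9, 47.2 and 62.4 RPKM in the same order of groups. AKR1C2 followed, at 11.8 RPKM in ERβ5, 1.01 in ERβ1, 4.45 in ERβ-KO and 2.48 in control. AKR1C1 stood at 4.57, 0.363, 1.96 and 0.852 RPKM, but its annotated transcript of 6543 bases holds 972 coding bases, and per coding kilobase it came to 30.8, 2.44, 13.2 and 5.73. AKR1C3 stood at 1.24, 0.302, 0.762 and 0.912 RPKM, AKR1B1 at 0.629, 0.411, 1.63 and 1.85 RPKM, and AKR1B10 at most at 0.0922 RPKM. In ERβ5 and ERβ-KO AKR1C1 stood above AKR1C3 and AKR1B1 by either length. Its place below both in control, and below AKR1B1 in ERβ1, held per transcript length and turned round per coding length. The summed level of the 7 genes was 271 and 342 CPM in ERβ5, 267 and 253 in ERβ1, 227 and 270 in ERβ-KO, and 262 and 273 in control. Within that sum the AKR1C genes took 17.4 and 26.6% of the reads in ERβ5, 2.13 and 2.49% in ERβ1, 10.7 and 12% in ERβ-KO, and 5.85 and 4.98% in control. AKR1A1 took 49.3 to 63.8%.

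Changes between groups were fitted with edgeR on all 13915 genes with enough reads, and a gene is called where its Benjamini-Hochberg adjusted p is under 0.05. Changes are log2, first group over second, with their SE. The comparisons share libraries and are not independent of each other. The median log2 change of all genes was between -0.005 and 0.01 in every comparison.

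Between the isoform groups, the AKR1C genes showed the widest gap in the family. In ERβ5 over ERβ1 the log2 change was 3.66 ± 0.33 for AKR1C1 (12.6-fold), 3.52 ± 0.31 for AKR1C2 (11.5-fold) and 1.92 ± 0.42 for AKR1C3 (3.79-fold). All 3 were called higher and 0 of the 6 tested members lower, where 4.66% of all genes were called, 3.49% higher and 1.18% lower. For 4 of the 6, AKR7A2 being the other, the libraries of both groups did not overlap, as for 43.1% of all genes. In size, 0.244% of genes had a larger change than AKR1C1 and 0.309% a larger one than AKR1C2. AKR1B1 changed by 0.60 ± 0.36, AKR1A1 by -0.05 and AKR7A2 by -0.20 ± 0.12, none of them called. AKR1C1 and AKR1C2 were called in all fits run, with 3.04 for AKR1C1 without the second ERβ5 library. AKR1C3 was not called without the first ERβ1 library (1.66), the second ERβ1 library (2.45) or the second ERβ5 library (1.44).

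Relative to the knockout, ERβ5 and ERβ1 lay on opposite sides for AKR1C1 and AKR1C2 and on the same side for AKR1B1. In ERβ5 over ERβ-KO, AKR1C1 changed by 1.22 ± 0.29 and AKR1C2 by 1.41 ± 0.27, both called higher, and AKR1B1 by -1.40 ± 0.30, called lower. AKR1C3, AKR7A2 and AKR1A1 changed by 0.71 ± 0.37, 0.26 ± 0.12 and 0.07 ± 0.11 and were not called. Of all genes 28.2% were called, 14.7% higher and 13.5% lower, and 66% had groups without overlap, as 4 of the 6 members did. The AKR1C1 call was lost without the second ERβ5 library (0.60), without the first ERβ-KO library (1.04) and when only these 2 groups were fitted (1.22), while the AKR1C2 and AKR1B1 calls were kept in all fits run, AKR1C2 at 0.87 without the second ERβ5 library. AKR1C3 was called without the first ERβ5 library (1.11).

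In ERβ1 over ERβ-KO, AKR1C1 changed by -2.43 ± 0.33, AKR1C2 by -2.12 ± 0.31 and AKR1B1 by -2 ± 0.32, all called lower in every fit run. AKR1C3 changed by -1.21 ± 0.43 and was not called. It was called without a filter (-1.21), with the replicate block (-1.30) and with only these groups fitted (-1.22). The same held without the first (-1.21) or second (-1.22) ERβ5 library. AKR7A2, at 0.46 ± 0.12, was called higher, and AKR1A1 changed by 0.12 ± 0.11. Of all genes 24.9% were called, 12.4% higher and 12.5% lower. For 5 of the 6 members, and 65.3% of all genes, the groups did not overlap. The AKR7A2 call was lost when each library's trend with GC content and transcript length was removed (0.17), without the first ERβ-KO library (0.30) and without the first ERβ1 library (0.39). The part of GC content in this change was not tested further.

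In ERβ-KO over control, AKR1C1 changed by 1.19 ± 0.30 (2.29-fold) and was called higher, and AKR7A2 by -0.40 ± 0.12 and was called lower. AKR1C2 changed by 0.84 ± 0.28, AKR1C3 by -0.29 ± 0.37, AKR1B1 by -0.19 ± 0.26 and AKR1A1 by -0.15 ± 0.11, with no call. Of all genes 17.5% were called, 8.98% higher and 8.52% lower. The groups did not overlap for 4 of the 6 members and for 69.2% of all genes. Neither of these calls was firm. The AKR1C1 call was lost with the GC and length trend removed (1.02), without the first (1.30) or second (1.10) control library, without the first (1.37) or second (1.00) ERβ-KO library and without the second ERβ1 library (1.19). The AKR7A2 call was lost with that trend removed (-0.08), without either control library (-0.40 each) and without the first ERβ-KO library (-0.25). AKR1C2 was called with DESeq2 (0.83) and in some other fits, and so was the sum of AKR1C1 and AKR1C2 in edgeR (1.00).

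Against unmodified cells, the isoform groups again differed in the AKR1C genes. In ERβ5 over control, AKR1C1 changed by 2.42 ± 0.30 (5.34-fold) and AKR1C2 by 2.24 ± 0.28 (4.74-fold), both called higher, and AKR1B1 by -1.59 ± 0.30, called lower, all 3 in every fit run. Without the second ERβ5 library the AKR1C1 change was 1.79. AKR1C3 changed by 0.42 ± 0.35, AKR7A2 by -0.14 ± 0.12 and AKR1A1 by -0.08. Of all genes 13.2% were called, 6.85% higher and 6.31% lower, and groups without overlap were found for 60.1% of genes and 4 of the 6 members. In ERβ1 over control, AKR1B1 changed by -2.19 ± 0.31 and was the member called, lower, where 4.06% of all genes were called, 1.36% higher and 2.7% lower. The groups did not overlap for 4 of the 6 members, against 55.1% of all genes. That call was lost without the second ERβ1 library (-2.06). AKR1C1 changed by -1.24 ± 0.34, AKR1C2 by -1.28 ± 0.31 and AKR1C3 by -1.50 ± 0.42. These 3 were not called in the fit reported here. All 3 were called when either ERβ5 library was left out or only the 2 groups were fitted, and AKR1C1 and AKR1C2 with DESeq2. Without a filter and with the replicate block, 4 members were called lower in this comparison.

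**Figure D3:**
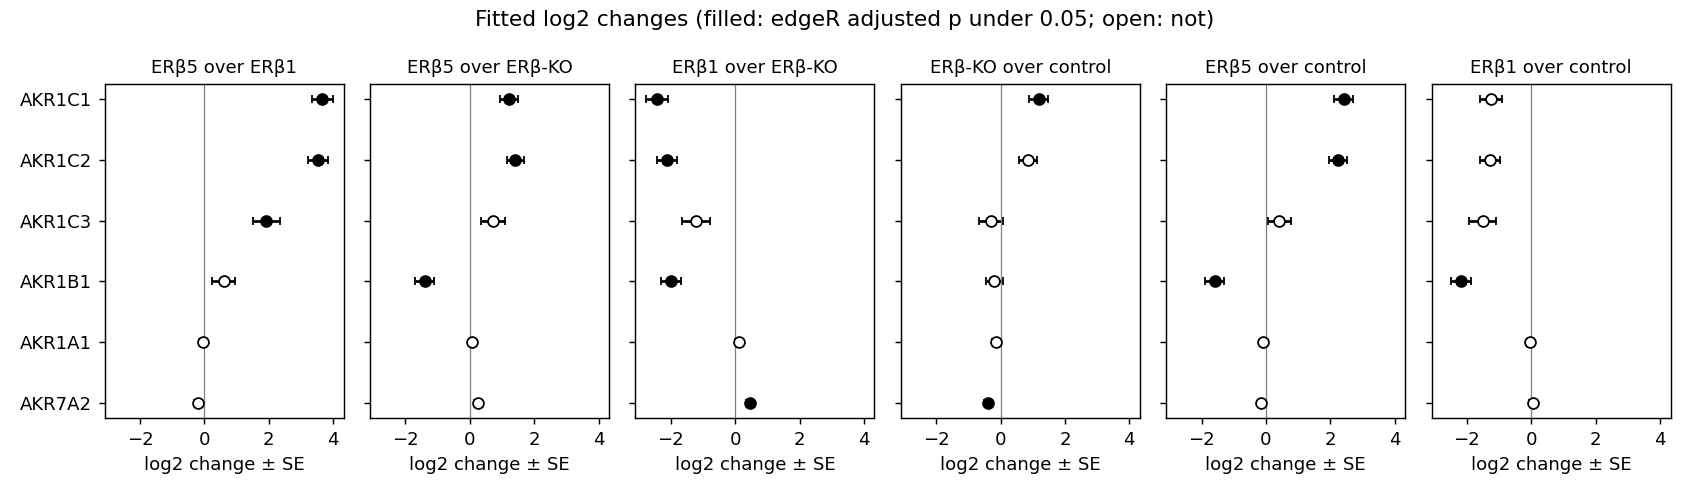
Points give the fitted log2 change of the 6 tested genes in each comparison, first group over second, with horizontal bars of ± SE. Filled points are called. AKR1C1 and AKR1C2 lie at 3.66 and 3.52 in ERβ5 over ERβ1 and at -2.43 and -2.12 in ERβ1 over ERβ-KO, and AKR1B1 lies left of 0 in all comparisons of an isoform group with ERβ-KO or control.

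Of 11 other genes of the superfamily, 10 are in the count tables and 5 had enough reads. AKR1E2, an anhydrofructose reductase next to the AKR1C cluster, had 6.6 CPM in ERβ-KO and 4.3 CPM in control, a log2 change of 0.62 ± 0.17 (edgeR adjusted p = 0.0313). It had 6.89 CPM in ERβ5, 0.68 ± 0.17 over control (edgeR adjusted p = 0.0256). The call over control was lost without either control library in both groups, without either ERβ-KO library in ERβ-KO (0.54 to 0.71) and without the second ERβ5 library in ERβ5 (0.53 to 0.82). KCNAB2, a beta subunit of potassium channels with the aldo-keto reductase fold, rose by 0.60 ± 0.17 in ERβ5 (7.32 CPM) and by 0.58 ± 0.17 in ERβ1 (7.2 CPM) over ERβ-KO (4.78 CPM), with edgeR adjusted p = 0.0235 and 0.0292. Neither call was kept with the GC and length trend removed or without the second ERβ-KO library, the ERβ5 call was also lost without the second ERβ5 library and with only these groups fitted (0.41 to 0.84), and the ERβ1 call also without either ERβ1 or either control library (0.39 to 0.81). KCNAB3, another beta subunit, was higher in ERβ5 (0.626 CPM) than in ERβ-KO (0.197 CPM), by 1.60 ± 0.51 (edgeR adjusted p = 0.0364), but it was not called by DESeq2, with the trend removed, or without either control library, either ERβ-KO library or the second ERβ5 library (1.33 to 1.88). AKR7A3 and AKR7L, the close relatives of AKR7A2, had at most 0.338 and 0.405 CPM in a group mean and were called nowhere. AKR1C4, AKR1D1, AKR1B15, AKR1CL1 and KCNAB1 had too few reads to be tested, with group means of at most 0.169 CPM. In ERβ5 over ERβ1, 0 of the 5 tested relatives were called by edgeR, where 4.66% of all genes were, or by DESeq2. None had an unadjusted p under 0.05. Their median log2 change was 0.57. It was 1.00 ± 0.64 for AKR7L, 0.85 ± 0.55 for AKR7A3 and 0.57 ± 0.45 for KCNAB3, all on few reads. AKR1E2 changed by 0.33 ± 0.17 and KCNAB2 by 0.03 ± 0.17. So few genes and reads cannot show whether the relatives differ.

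Genes of the pathways in which the members act were described from 7 lists. The list of NRF2, its partners and its target genes held 33 genes, all tested. In ERβ5 over ERβ1, 10 were called higher and 0 lower, with a median log2 change of 0.39, where 3.49% of all genes were higher and 1.18% lower. In ERβ5 over ERβ-KO, 12 were higher and 2 lower (median 0.27), against 14.7 and 13.5% of all genes. In ERβ1 over ERβ-KO, 0 were higher and 11 lower (median -0.26), against 12.4 and 12.5%. In ERβ-KO over control the counts were 6 and 2 (median 0.04; 8.98 and 8.52% of all genes), in ERβ5 over control 11 and 2 (median 0.34; 6.85 and 6.31%) and in ERβ1 over control 0 and 3 (median -0.18; 1.36 and 2.7%). The same shares of all genes stand behind the counts of the other lists, and nothing is called particular to a list. Leaving out single libraries moved these counts. In ERβ5 over ERβ1 they ran from 5 higher without the first ERβ1 library to 18 without the first ERβ5 library, with 0 lower throughout. In ERβ1 over ERβ-KO they ran from 2 lower without the first ERβ1 library to 15 without the first ERβ5 library, with 0 higher, and in ERβ5 over ERβ-KO from 5 higher without the second ERβ5 library to 17 without the first. In ERβ5 over control 4 were higher and in ERβ-KO over control 1 without the first control library, and in ERβ1 over control 0 were lower without it. The list holds none of the 7 members and was written with earlier results known.

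HMOX1, heme oxygenase, had 180 and 332 CPM in ERβ5, 27.6 and 31.7 in ERβ1, 69.5 and 99.4 in ERβ-KO, and 34.4 and 36.6 in control. The libraries stood in the group order of AKR1C1, although ERβ1 and control lay close. HMOX1 differed by 3.11 ± 0.29 in ERβ5 over ERβ1 (edgeR adjusted p = 0.00057). OSGIN1, an oxidative stress gene, had 68.8 and 116 CPM in ERβ5, 29.1 and 26.6 in ERβ1, 35.8 and 41.1 in ERβ-KO, and 32.8 and 30.5 in control, and was 1.73 ± 0.21 higher in ERβ5 than in ERβ1 (edgeR adjusted p = 0.00147), a call lost without the second ERβ1 library. SLC7A11, the cystine transporter, was highest in ERβ-KO. Its change in ERβ5 was 0.37 ± 0.14 over ERβ1 and 0.44 ± 0.14 over control, neither called. It averaged 129 CPM in ERβ5, 99.5 in ERβ1, 257 in ERβ-KO and 95 in control, and fell by 0.99 ± 0.14 in ERβ5 against ERβ-KO (log2, edgeR adjusted p = 0.000945).

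Among the other carbonyl-reducing and aldehyde-clearing genes, 20 of 24 were tested. In ERβ5 over ERβ1, 1 was called higher and 0 lower. It was CBR3, a carbonyl reductase of another protein family, with 19.6 and 31 CPM in ERβ5, 9.57 and 11.3 in ERβ1, 17.7 and 19.6 in ERβ-KO, and 13.7 and 12.8 in control. Its change was 1.27 ± 0.20 in ERβ5 over ERβ1 (edgeR adjusted p = 0.00387) and -0.82 ± 0.20 in ERβ1 over ERβ-KO (edgeR adjusted p = 0.013), and both calls were lost without the first ERβ1 library, the call in ERβ1 over ERβ-KO also without the second ERβ-KO library (0.89 to 1.58 and -0.94 to -0.72 over all libraries left out). In ERβ5 over ERβ-KO, 5 of the 20 were higher and 2 lower, where 28.2% of all genes were called, and in ERβ1 over ERβ-KO, 4 and 3, where 24.9% were. DCXR, which reduces dicarbonyls and xylulose, rose in both, by 0.78 ± 0.14 and 0.73 ± 0.14 (edgeR adjusted p = 0.00391 and 0.00373), with 93.2 CPM in ERβ5, 90.2 in ERβ1, 54.4 in ERβ-KO and 84.1 in control. Over control, DCXR changed by 0.15 ± 0.14 in ERβ5 and 0.10 ± 0.14 in ERβ1, not called. In ERβ-KO over control 0 were higher and 3 lower, in ERβ5 over control 3 and 1, and in ERβ1 over control 0 and 0 by edgeR and by DESeq2, with 3 at an unadjusted p under 0.05.

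Steroid-metabolising genes outside the family, 19 of 33 tested, had a median log2 change of -0.13 in ERβ5 over ERβ1. In that comparison edgeR called 0 of them, 6 had an unadjusted p under 0.05, and DESeq2 called 1 higher and 1 lower. In ERβ1 over ERβ-KO, 6 were higher and 1 lower, and in ERβ5 over ERβ-KO, 3 and 2. STS, steroid sulfatase, was 0.80 ± 0.13 higher in ERβ1 (15.8 CPM) than in control (9.09 CPM; edgeR adjusted p = 0.00543, lost without the first control library). In ERβ-KO over control 0 were higher and 5 lower, in ERβ1 over control 1 and 1, and in ERβ5 over control 3 and 2. With the GC and length trend removed, these counts were 0 and 2, 3 and 2, and 3 and 2. Leaving out single libraries also moved them. Where no gene of a list was called, genes of it may still differ by less than this depth and number of libraries can show.

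The prostaglandin list, 9 of 20 tested, held 2 genes called higher and 0 lower in ERβ5 over ERβ1. PTGES, which makes prostaglandin E2, had 22.8 and 25.1 CPM in ERβ5, 6.69 and 6.64 in ERβ1, 10.8 and 8.08 in ERβ-KO, and 3.51 and 3.13 in control. No groups overlapped, and PTGES differed by 1.85 ± 0.16 in ERβ5 over ERβ1 and by 1.35 ± 0.15 in ERβ5 over ERβ-KO (edgeR adjusted p = 0.00016 and 0.000338), both kept in all fits run. In the polyol and fructose list, 7 of 10 tested, SORD, which turns sorbitol into fructose, fell in ERβ5 over ERβ-KO by 0.40 ± 0.12 (log2, edgeR adjusted p = 0.0318), with 19.3 CPM in ERβ5 and 25.4 CPM in ERβ-KO. That call was lost without either control library, either ERβ-KO library or the second ERβ5 library (-0.49 to -0.30) and with only these groups fitted. In ERβ1 over ERβ-KO the change of SORD was -0.30 ± 0.12, not called. The list had 2 higher and 2 lower in ERβ5 over ERβ-KO, 2 and 0 in ERβ1 over ERβ-KO, and in ERβ5 over ERβ1 0 by edgeR and by DESeq2, with 1 at an unadjusted p under 0.05. Those higher in ERβ5 over ERβ-KO were SLC6A6 (0.72 ± 0.15) and DAK (0.39 ± 0.12), and SLC5A3 (-0.79 ± 0.21) was lower beside SORD. Each of these calls was lost in some fits.

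In the retinoid list, 13 of 25 tested, 2 were higher and 1 lower in ERβ5 over ERβ1. RARRES3 (1.60 ± 0.31) and RARA (0.42 ± 0.11) were higher and CRABP1 (-0.91 ± 0.16) lower. Each of these calls was lost in some fits, that of RARA also with the replicate block and with only these groups fitted. RARA, a retinoic acid receptor of the list, had 63 and 68.9 CPM in ERβ5, 51.5 and 47.2 in ERβ1, 36.5 and 35 in ERβ-KO, and 36.9 and 36.8 in control, and was 0.90 ± 0.11 higher in ERβ5 than in ERβ-KO (edgeR adjusted p = 0.000433). CRABP1, a binding protein of retinoic acid, averaged 5.99 CPM in ERβ5, 11.2 in ERβ1, 6.27 in ERβ-KO and 11.8 in control. It was 0.85 ± 0.16 higher in ERβ1 than in ERβ-KO (edgeR adjusted p = 0.00346). Of the genes that supply NADPH, 17 of 20 were tested, and in ERβ5 over ERβ1 edgeR called 0, DESeq2 1, and 4 had an unadjusted p under 0.05. In ERβ5 over ERβ-KO and in ERβ1 over ERβ-KO, 2 were higher and 4 lower each. The mitochondrial folate enzyme MTHFD2 averaged 183 CPM in ERβ5, 232 in ERβ1, 431 in ERβ-KO and 308 in control, with log2 changes from ERβ-KO of -1.23 ± 0.15 in ERβ5 and -0.89 ± 0.14 in ERβ1 (edgeR adjusted p = 0.000412 and 0.00141). ALDH1L2, another, averaged 98.3 CPM in ERβ5, 119 in ERβ1, 226 in ERβ-KO and 145 in control, with changes of -1.20 ± 0.10 and -0.92 ± 0.10 (edgeR adjusted p = 0.000133 and 9.92e-05).

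Genes outside the family whose log2 level followed a member most closely over the 8 libraries were ranked among 10583 genes of at least 5 CPM. For AKR1C1 the first 5 were MAFF (r = 0.984), CP (0.983), CBR3 (0.978), IRF1 (0.978) and TMEM62 (0.974), and for AKR1C2 MAFF (0.978), CBR3 (0.977), CP (0.975), DSCAM (0.969) and TXNRD1 (0.968). MAFF, a small MAF transcription factor, had 9.17 and 13.3 CPM in ERβ5, 4.07 and 3.85 in ERβ1, 7.6 and 7.1 in ERβ-KO, and 6.01 and 4.84 in control. CP, ceruloplasmin, had 17.4 and 35.2 CPM in ERβ5, 2.02 and 2.97 in ERβ1, 11.1 and 13.5 in ERβ-KO, and 4.38 and 3.62 in control. TXNRD1, thioredoxin reductase, had 279 and 341 CPM in ERβ5, 152 and 159 in ERβ1, 221 and 207 in ERβ-KO, and 177 and 180 in control. AKR1C3, with few reads, was followed by KTI12 (0.963), TMEM206 (0.948), RPP25 (0.935), FTH1 (0.935) and LEMD2 (0.932). MAFF, TXNRD1 and FTH1, a ferritin chain, also stand in the NRF2 list, and CBR3 in the carbonyl list.

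AKR1B1 was followed by VIM (r = 0.986), ZNF26 (0.978), MAD2L2 (0.975), DAZAP1 (0.974) and MNX1 (0.972). VIM, vimentin, had 2.61 and 4.33 CPM in ERβ5, 2.69 and 1.83 in ERβ1, 8.02 and 8.64 in ERβ-KO, and 7.72 and 12.3 in control, so that its isoform libraries also lay below all the others. VIM is on the glioma list, whose summed level, given above, was likewise lower in all 4 isoform libraries than in the ERβ-KO and control libraries. Its part in the AKR1B1 levels was not tested. AKR1B1 itself correlated at 0.22, 0.2 and 0.5 with AKR1C1, AKR1C2 and AKR1C3, and AKR1A1 at 0.85 with AKR7A2. With 8 libraries in 4 groups, any gene with the same group order reaches a high r, and the values describe likeness of pattern only.

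**Figure D4:**
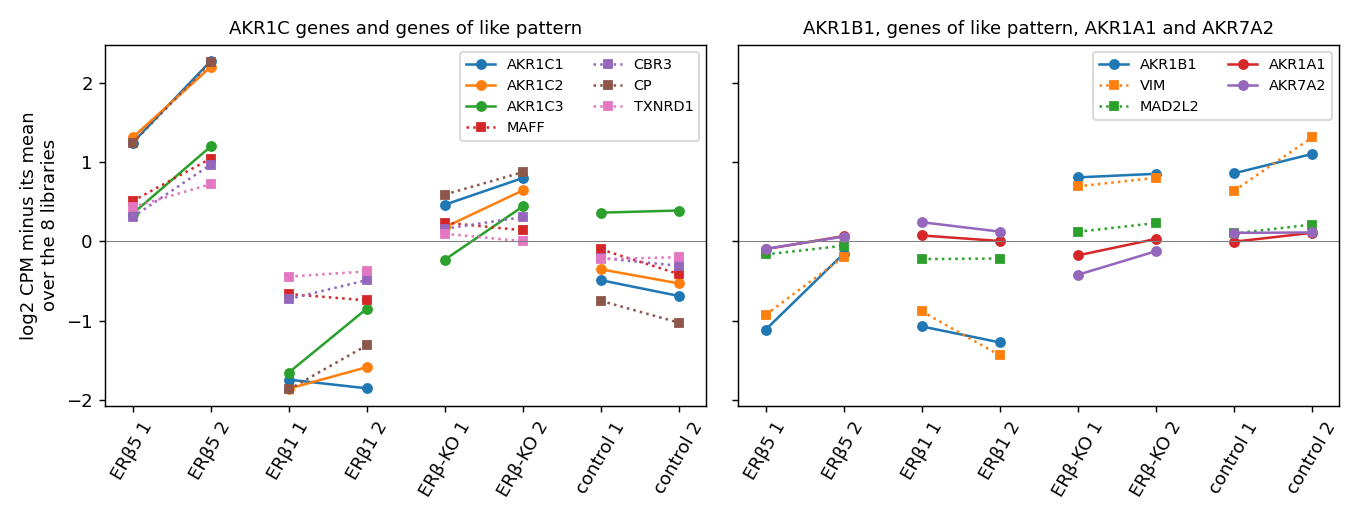
Each point is the log2 CPM of a gene in a library minus its mean over the 8 libraries, for members (circles, solid lines) and genes outside the family (squares, dotted lines), with lines joining the 2 libraries of a group. On the left CP overlies AKR1C1, while MAFF, CBR3 and TXNRD1 take the same order of groups in a smaller range. On the right VIM runs close to AKR1B1, and AKR1A1 and AKR7A2 stay near 0.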

How the data were processed

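RNA was sequenced as single-end reads of 50 bases in 8 libraries, 2 in each of 4 groups taken from the sample titles. The files hold the authors' unnormalized counts of reads by gene, per the submitters' processing notes made with bcl2fastq, TopHat2 2.0.8b on hg19 and HTSeq. Which HTSeq version, strand setting and annotation were used is not given in the sources used here, so reads of overlapping antisense genes (AKR1C2 overlaps a long noncoding RNA) cannot be told apart. Entries that name no gene, 42.9 to 47.5% of each file's total, entered neither library sizes nor tests. Reads in genes ran from 26760897 to 48076414 per library.

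Genes were filtered with filterByExpr (minimum count 10, minimum total 15), which left 13915, scaled with TMM and tested with edgeR 4.0.16 in R 4.3.3 (quasi-likelihood F test, robust, all 8 libraries in 1 fit), with Benjamini-Hochberg adjustment over all tested genes and a threshold of 0.05. The SE was computed as log2 change over root F. Levels of single libraries are CPM of the total gene count, and group means use TMM-scaled sizes. Lengths, positions and windows come from GENCODE on GRCh37, and promoters from RefSeq. Of the members, 6 of 7 passed the filter.

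The members and gene lists were chosen with earlier results of these data known. Named genes are the 7 members, the other aldo-keto reductases, up to 4 called genes per list with at least 5 CPM and the largest change of either isoform group from ERβ-KO, and the 5 genes most like a member. Single results of some list genes are not reported here. The alternatives were other size factors, no filter or at least 1 CPM in 2 libraries, DESeq2 1.42.0, a replicate block, removal of the GC and length trend of each library (lowess, edgeR offsets), only the groups compared, AKR1C1 and AKR1C2 summed, and leaving out each library, where a library left alone is assumed to vary like the others. The fitting script was tested on simulated data.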

Additional observations from a re-analysis of the deposited data

How the results depend on the processing

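Of 552 member changes refitted under alternatives, 486 kept their direction and their side of the threshold. Other size factors and the minimum of 1 CPM moved no count of called genes or members by more than 1.5 times. Counts of called genes that moved further were, in ERβ-KO over control, 4351 with only these groups fitted, in ERβ5 over ERβ-KO 2511 with the GC and length trend removed, in ERβ5 over ERβ1 1375 without a filter, 1171 with the trend removed and 421 with only these groups, in ERβ5 over control 3036 with the trend removed, and in ERβ1 over control 1384, 853, 1381 and 1107 without a filter, with DESeq2, with the trend removed and with only these groups. They stand against 2434, 3922, 649, 1831 and 565 genes as reported. Called members changed to 0 in ERβ-KO over control with the trend removed, and in ERβ1 over control to 4 without a filter, 3 with DESeq2, 4 with the replicate block, 2 with the trend removed and 4 with only these groups. Leaving out single libraries gave 237 to 3226 genes and 0 to 3 members in ERβ-KO over control, 1198 to 4203 and 3 to 5 in ERβ1 over ERβ-KO, 1674 to 4378 and 2 to 4 in ERβ5 over ERβ-KO, 125 to 1389 and 2 to 3 in ERβ5 over ERβ1, 128 to 975 and 0 to 4 in ERβ1 over control, and 587 to 2143 and 3 to 3 in ERβ5 over control. The cause of these moves was not tested.

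The replicate numbers did not pair the libraries (the differences between replicates correlated at -0.12 to 0.139 between groups). With the replicate block, 2532, 3519, 3929, 652, 581 and 1850 genes and 3, 5, 3, 3, 4 and 3 members were called in ERβ-KO over control, ERβ1 over ERβ-KO, ERβ5 over ERβ-KO, ERβ5 over ERβ1, ERβ1 over control and ERβ5 over control.

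Directions reversed in changes that were not called. AKR1A1 with the trend removed came to 0.05 in ERβ-KO over control, -0.07 in ERβ1 over ERβ-KO and -0.13 in ERβ5 over ERβ-KO, and AKR7A2 to -0.08 in ERβ5 over ERβ-KO. With each library left out in turn, changes that crossed 0 ran, for AKR1A1, from -0.04 to 0.19 in ERβ5 over ERβ-KO, -0.15 to 0.05 in ERβ5 over ERβ1, -0.08 to 0.02 in ERβ1 over control and -0.18 to 0.01 in ERβ5 over control, for AKR1C3 from -0.65 to 0.05 in ERβ-KO over control and -0.07 to 0.82 in ERβ5 over control, and for AKR7A2 from -0.01 to 0.12 in ERβ1 over control. Depth limits AKR1C3, AKR1B1 and above all AKR1B10, which rest on 7 to 52, 16 to 100 and 2 to 5 reads.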
